A study of Mus musculus with 37 samples.

Results

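GV oocytes of batch A were compared with GV oocytes of batch B, 2 batches of the same meiotic stage. The members were taken by column name from the table of expected counts per gene, oocytes A1 to A6 and B1 to B10, and made up 16 of the 37 single oocytes of the study. The study followed gene and isoform expression in single mouse oocytes from the germinal vesicle (GV) stage through metaphase I (MI) to metaphase II (MII). GV was the stage sequenced in both batches, whereas the 6 MII oocytes belonged to batch A and the 15 MI oocytes to batch B. The comparison asked which genes, RNA classes and transcript lengths differed between batches of the same stage, and which abundant oocyte transcripts did not.

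All 16 oocytes came from C57BL/6 females aged 6 to 8 weeks that received 5 IU of PMSG, a gonadotropin that stimulates follicle growth, and were taken from the ovary 48 h later. In both batches the oocytes were treated with hyaluronidase, freed of the zona pellucida and lysed singly. Libraries were made with Smart-seq2, which copies RNA from an oligo-dT primer, and the KAPA HyperPlus kit, and were sequenced in pairs on the Illumina NovaSeq. The labels give a batch letter and an oocyte number, but neither the animal behind an oocyte nor what else differed between the batches. The p-values below measure the spread between these oocytes, and because each batch was made once, the batch itself has no replicate.

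A fully grown GV oocyte is arrested in the first meiotic prophase and holds a store of messenger RNA made while it grew. Transcription has largely stopped by then, and maturation runs on translation and removal of the stored messages. Among the best known of these are the zona pellucida proteins of the egg coat, the secreted growth factors Gdf9 and Bmp15, and the subcortical maternal complex that early cleavage needs.

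Total counts, without the ERCC spike-in RNAs, ranged from 7509812 to 12648571 in batch A and from 7184193 to 17724506 in batch B. The means of 10225000 ± 2154100 (SD, n = 6) and 12473000 ± 3375600 (SD, n = 10) did not differ past the threshold (two-sided exact permutation test on the 8008 ways to split the oocytes 6 to 10, adjusted p = 0.17). A level of 3 counts, taken as the floor of detection, corresponded to 0.169 to 0.418 CPM (counts per 1000000 counts) in single oocytes. From here on, CPM values were scaled with TMM factors, which compare libraries on the bulk of their genes and ran from 1.26 to 1.62 in batch A and from 0.648 to 0.97 in batch B. They are not divided by transcript length, so a ranking of genes by CPM is not a ranking per molecule. Floors cover counting error alone, since the libraries carry no molecular identifiers.

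The cells bore the marks of oocytes in both batches. The 10 oocyte markers Zp1, Zp2, Zp3, Gdf9, Bmp15, Ooep, Nlrp5, Npm2, Dppa3 and Zar1 had counts in every one of the 16 libraries, the lowest value of any being 104 CPM for Zp1 in batch B. Of the 5 genes taken as defining markers of the granulosa and cumulus cells that surround an oocyte, Amhr2 had no count in any library, Foxl2 had 6 counts in batch A and 0 in batch B, Fshr had 70 and 22, and Inha had 59 and 15. The last, Cyp19a1, the aromatase gene, had 1067 and 2084 counts spread over all 16 oocytes, so it did not follow the other defining markers. Other listed granulosa genes had more reads, led by Serpine2 and Bmpr1b, and the list summed to between 219 and 280 CPM in every oocyte. Of blood markers, Lyz2 had no count, Ptprc had 2 and 3 and the globin gene Hba-a1 had 1 and 10, but Ms4a1 and C1qb had reads in both batches and the beta-globins in batch B.

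Batches differed at many genes. Of 13398 genes with 10 or more counts in at least 6 of the 16 oocytes, 2577 (19.2%) were called different, meaning that the fold change exceeded 2 at an adjusted p below 0.05 in edgeR's quasi-likelihood test with Benjamini-Hochberg adjustment. Calls were higher in batch B for 1477 genes (11%) and lower for 1100 (8.21%), and the median log2 fold change of all genes, batch B minus batch A, was -0.02. The 6 oocytes of batch A did not overlap with the 10 of batch B in CPM for 1476 genes (11%), 905 of them higher in batch B (6.75%) and 571 lower (4.26%). At the other end, 3738 genes (27.9%) had a 95% interval of the fold change, which takes in the spread between oocytes, wholly within a factor of 2 in either direction, the definition of agreement used here. A gene that agreed in this sense could still have an adjusted p below 0.05, or no overlap between batches, at a fold change under 2. The calls split 57.3% to the higher side, but with no filter on counts, over 32596 genes, 1582 were higher and 2138 lower (42.5% higher). Taking the trend of CPM on transcript length and GC out of each oocyte, an adjustment chosen after the data were seen, gave 2244 calls, of which 1660 were higher and 584 lower (74% higher), and moved the median of all genes to 0.14.

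Oocytes resembled their own batch. The correlation of log2 CPM over the tested genes was 0.942 to 0.982 within batch A (median 0.956 over 15 pairs) and 0.891 to 0.95 within batch B (median 0.932 over 45 pairs). Between batches it was 0.851 to 0.932 (median 0.896 over 60 pairs). The ranges of between-batch and within-A pairs thus did not meet, whereas those of between-batch and within-B pairs overlapped. Oocyte B7 had a median correlation of 0.909 with its own batch and 0.906 with batch A. Batch B was the more variable group, with a common biological coefficient of variation of 0.555 beside 0.339 in batch A.

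A larger share of batch B reads came from ribosomal and 7SK or 7SL-type RNA, and a smaller share from nuclear protein-coding genes and from the messenger RNAs of mitochondria. Nuclear protein-coding genes took 63.3% ± 4.48 of counts in batch A (SD, n = 6) and 49.2% ± 6.52 in batch B (SD, n = 10). Ribosomal RNA-like genes, here nuclear genes with 50% or more of their span inside an annotated rRNA gene, took 21.5% ± 5.96 and 36% ± 7.04. Mitochondrial messenger RNAs took 0.534% ± 0.111 and 0.119% ± 0.0349, a ratio of 0.223, while the mitochondrial rRNAs of the same genome took 1.31% ± 0.397 and 1.95% ± 0.429.

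For nuclear protein-coding genes the lowest, median and highest shares were 59.5%, 61.7% and 70.8% in batch A against 35.1%, 49.4% and 57.6% in batch B. Ribosomal RNA-like genes ran from 13.6% over 23.1% to 27.2% in batch A and from 27.4% over 36.3% to 50.1% in batch B. For mitochondrial messenger RNA the same figures were 0.409%, 0.529% and 0.666% against 0.0809%, 0.110% and 0.196%. None of these 3 classes overlapped between batches, whereas mitochondrial rRNA did. With two-sided exact permutation tests adjusted over 11 classes, the p-values were 0.000687 for protein-coding genes, 0.000824 for ribosomal RNA-like genes, 0.000458 for mitochondrial messenger RNA and 0.0153 for mitochondrial rRNA.

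Smaller classes moved as well. Pseudogenes fell from 0.658% ± 0.106 to 0.397% ± 0.0463 of counts and antisense transcripts from 0.364% ± 0.0927 to 0.222% ± 0.0264, with no overlap between batches and an adjusted exact permutation p of 0.000458 for both. Other long noncoding RNA fell from 0.221% ± 0.0477 to 0.152% ± 0.0177 (adjusted exact permutation p = 0.000916), and misc_RNA, the annotation's class for the 7SK and 7SL RNAs and their copies, rose from 0.432% ± 0.181 to 0.814% ± 0.288 (0.0191). LincRNA, TEC genes (the annotation's label for loci whose transcripts still await experimental evidence) and other small RNAs did not pass the threshold, at adjusted exact permutation p-values of 0.732, 0.283 and 0.187. The antisense difference did not pass in the HTSeq counts of the same libraries, where it was -0.02795 percentage points (adjusted exact permutation p = 0.316), whereas the lincRNA share was higher there by 0.1941 points (p = 0.0362). As shares of what remains without ribosomal RNA-like and mitochondrial counts, lincRNA was higher in batch B by 1.292 points (adjusted exact permutation p = 0.0015), and TEC turned from -0.604 to 1.688 points (p = 0.0442). Without oocyte A3 the TEC difference passed, at -0.9819 points (adjusted exact permutation p = 0.0484), and that of lincRNA turned from 0.0891 to -0.0727. Reads of overlapping, antisense and near-identical genes are uncertain throughout, since RSEM shares ambiguous reads out between them and HTSeq does not.

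Gene by gene, after TMM scaling, misc_RNA and the mitochondrial genes stood out as they did by share. Of 18 misc_RNA genes tested, 16 were higher in batch B and 0 lower, with a median log2 fold change of 2.44 beside -0.02 over all genes. The class includes copies of the same RNAs, among which RSEM can divide reads, so the 16 calls may not be independent. The remaining misc_RNA genes, Gm23179 and Gm22701, had log2 fold changes of 0.32 and 0.68 that did not pass. Of the 13 mitochondrial protein-coding genes 10 were lower and 0 higher (median -1.47), and both mitochondrial rRNA genes were higher. Of the ribosomal RNA-like class 3 genes passed the filter: CT010467.1 and Gm42418 were higher, and the microRNA locus Gm47301, with at most 3.88 CPM, was lower (-5.75). Pseudogenes had 71 higher and 42 lower of 476, antisense genes 35 and 19 of 314, and other long noncoding genes 19 and 12 of 212, so these classes had no excess of lower calls although their share of counts fell, beside 11% higher and 8.21% lower over all genes. TEC genes had 39 higher and 16 lower of 247 and lincRNA genes 52 and 41 of 661. Nuclear protein-coding genes gave 1233 higher and 954 lower of 11409, with a median of -0.03.

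Rn7sk, the 7SK RNA that holds the elongation factor P-TEFb in check, was among the polymerase III transcripts higher in batch B. Its CPM was 84.6, 127 and 217 (lowest, median and highest) in batch A against 363, 869 and 1066 in batch B. Every batch B oocyte exceeded every batch A oocyte, and the difference was 5.87-fold (log2 fold change 2.55 ± 0.25 SE, adjusted p = 6.17e-08, edgeR's quasi-likelihood test with Benjamini-Hochberg adjustment). The 7SL RNA copies Rn7s1 and Rn7s2, which encode the RNA of the signal recognition particle, were both higher by a log2 fold change of 1.38 (adjusted p = 0.000609 in the same edgeR test). Their reads are near-identical and cannot be told apart, and in HTSeq counts Rn7s2 did not pass (0.28, adjusted p = 0.465 by edgeR).

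Ribosomal sequence made up the most abundant genes of all. CT010467.1, an rRNA gene on chromosome 17 (GRCm38, 39846353 to 39848827), took 15.6% ± 5.36 of counts in batch A and 26.9% ± 4.34 in batch B. Gm42418, annotated on the opposite strand of the same place, took 5.66% ± 1.77 and 9.17% ± 3.83. Both shares were larger in batch B, with overlapping ranges and adjusted exact permutation p-values of 0.000749 and 0.0396. RSEM shares out ambiguous reads between these overlapping genes, and Gm42418 had too few HTSeq counts to be tested. The large mitochondrial rRNA mt-Rnr2 had 5355, 6616 and 10133 CPM in batch A and 12162, 15635 and 25525 in batch B, 2.33-fold higher with no overlap after TMM scaling (edgeR quasi-likelihood adjusted p = 1.21e-05). As a share of counts it was 0.995% ± 0.316 and 1.42% ± 0.342, a ratio of 1.43 with overlap (adjusted exact permutation p = 0.0354).

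**Figure D1:**
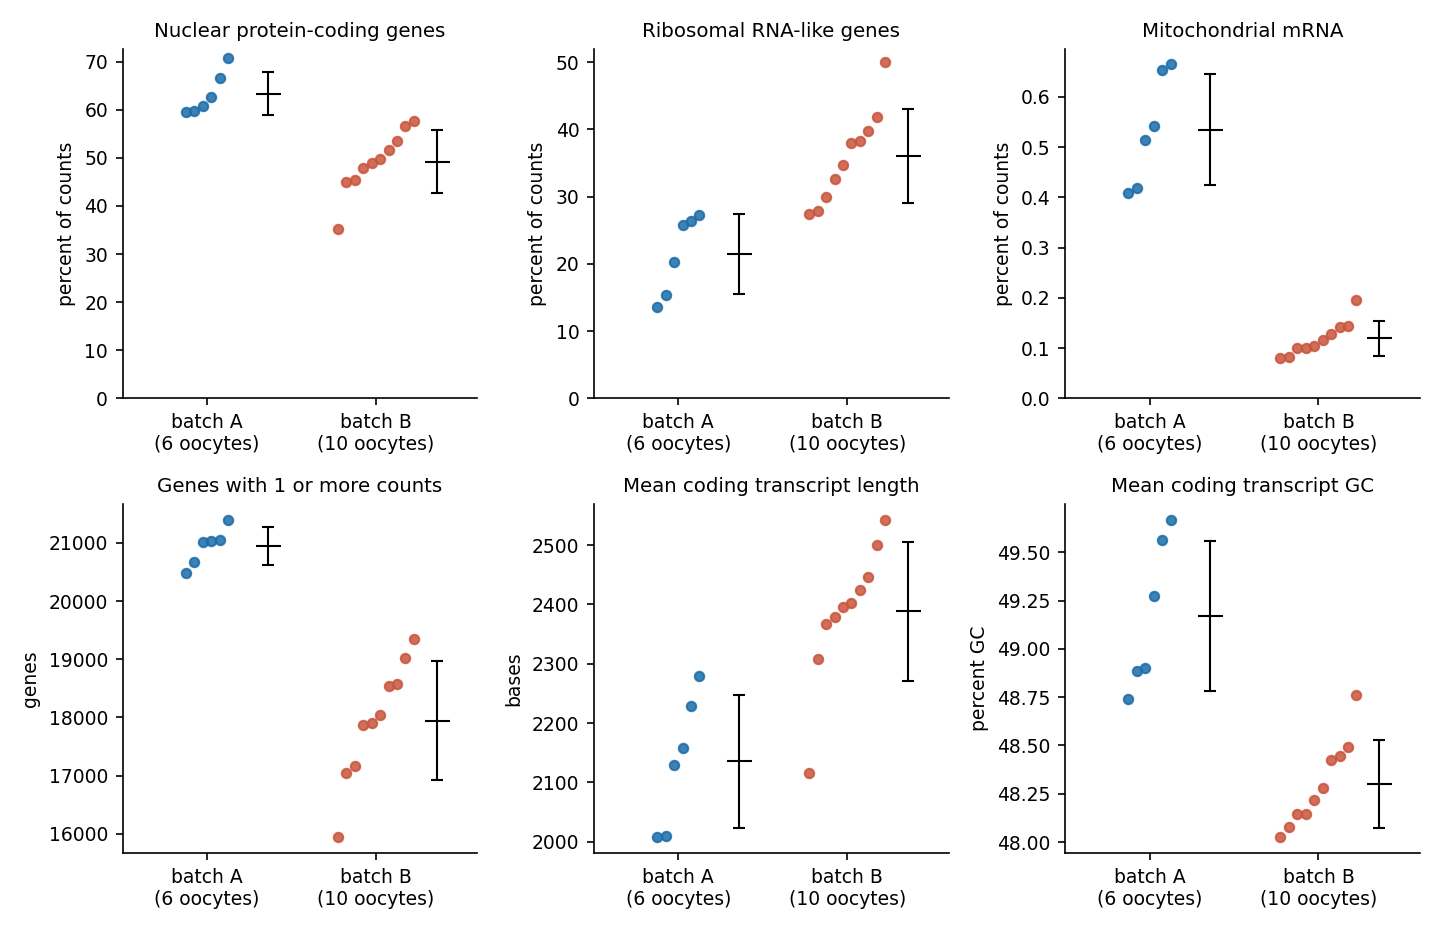
Share of counts in nuclear protein-coding genes, ribosomal RNA-like genes and mitochondrial mRNA (percent), genes with 1 or more counts, and mean length (bases) and GC (percent) of protein-coding transcripts, for each GV oocyte of batch A (6 points) and batch B (10 points), with mean and SD as bars; the axes of the lower panels do not start at 0. The share panels and the gene panel show no overlap between batches, with mitochondrial mRNA between 0.409% and 0.666% in batch A and between 0.0809% and 0.196% in batch B.

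Fewer genes were seen in batch B, and more of its counts fell on the top genes. Genes with 1 or more counts numbered 20479, 21033 and 21395 (lowest, median, highest) in batch A and 15937, 17978 and 19355 in batch B. The batches did not overlap, and the mean was lower by 3000.6 genes in batch B (two-sided exact permutation test, p = 0.000125, the smallest it can give, adjusted p = 0.000333 over 8 measures). With every oocyte thinned to 4322663 counts of nuclear genes outside the ribosomal RNA-like class, the means were 19397 ± 601 and 16901 ± 521 genes. A gap was thus also present with this number of counts matched, though nothing else was matched. Genes with 10 or more counts numbered 13251 ± 390 and 12182 ± 783, with overlap (adjusted exact permutation p = 0.00928), and after thinning 11523 to 12197 and 10685 to 11217, with none. The 100 most abundant genes of an oocyte held 45.3% ± 3.52 of counts in batch A and 59.1% ± 5.27 in batch B, again with no overlap (adjusted exact permutation p = 0.000333). This share was larger by 13.8 points, and that of ribosomal RNA-like genes, which include the most abundant genes of all, by 14.6 points. The share of the top genes without that class was not measured.

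Spike-in RNA separated the batches entirely. ERCC counts were 0.906% ± 0.300 of all counts in batch A and 0.000114% ± 8.95e-05 in batch B (adjusted exact permutation p = 0.000333). Batch B therefore offers no spike-in scale, and all differences here are relative to the rest of the library. The amount of RNA per oocyte was not measured.

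Genes with long transcripts were relatively higher in batch B, and those of 500 to 2000 bases lower. The median log2 fold change of protein-coding genes was -0.37 for transcripts of 500 to 1000 bases and -0.40 for 1000 to 2000 bases, then -0.06 for 2000 to 4000, 0.36 for 4000 to 8000 and 0.65 for over 8000. Genes over 8000 bases had 140 called higher and 7 lower of 521, whereas those of 1000 to 2000 bases had 139 higher and 377 lower of 2716. Length is that of the gene's most abundant transcript over the 16 oocytes. Under 500 bases the median was -0.30 over 84 genes, with 10 higher and 11 lower. That class, and the one of 2000 to 4000 bases, did not keep its sign when length or genes were chosen otherwise, at 0.08 with the union of exons and all gene types and at 0.04 for genes averaging 100 or more counts, respectively. By the union of exons over all gene types, the median for 4000 to 8000 bases shrank from 0.37 to 0.07 and that for over 8000 bases from 0.64 to 0.45. Single transcripts, taken without regard to their gene, kept the order from 1000 bases upward but not under it: the median was 0.03 under 500 bases (151 higher and 60 lower of 903), 0.04 for 500 to 1000 (802 and 317 of 4585), -0.34 for 1000 to 2000 and 0.50 over 8000.

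GC content went the other way. The medians for protein-coding genes were 0.08 under 40% GC, 0.26 at 40 to 45%, 0.14 at 45 to 50%, -0.14 at 50 to 55% and -0.41 over 55%. In the last class 111 genes were higher and 349 lower of 2321. Genes called higher had a median transcript length of 3856 bases and a median GC of 46.98%, genes called lower had 1931.5 bases and 53.08%, and those not called had 2784.5 bases and 49.3%. Across 11409 protein-coding genes Spearman's rho of the log2 fold change was 0.34 with length and -0.25 with GC, and length and GC were themselves related at -0.24; genes are not independent replicates, so these are descriptions.

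Within each GC class the length order held from 1000 bases upward. Under 1000 bases it did not: over 55% GC the median was 0.17 under 500 bases (29 genes) and 0.09 over 8000 (33 genes). At 45 to 50% GC the median climbed from -0.23 for 1000 to 2000 bases (653 genes) over 0.07 for 2000 to 4000 (1287 genes) and 0.46 for 4000 to 8000 (819 genes) to 0.77 for over 8000 (176 genes). Within a single length class GC mattered too: for 4000 to 8000 bases the median was 0.53 at 40 to 45% GC (709 genes) and -0.09 over 55% (330 genes). Per oocyte, the mean length of protein-coding transcripts, weighted by counts per length, was 2007, 2144 and 2279 bases in batch A and 2115, 2399 and 2542 in batch B (adjusted exact permutation p = 0.002). Mean GC was 48.7%, 49.1% and 49.7% against 48%, 48.2% and 48.8% (adjusted exact permutation p = 5e-04). Both measures differed on average while their ranges touched. The share of protein-coding counts in transcripts over 8000 bases, each taken at its own length, was 5.01% ± 0.698 in batch A and 8.10% ± 0.874 in batch B. That of transcripts of 1000 to 2000 bases was 29.4% ± 2.43 and 22.7% ± 2.31. In both of these classes the ranges of the batches overlapped.

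**Figure D2:**
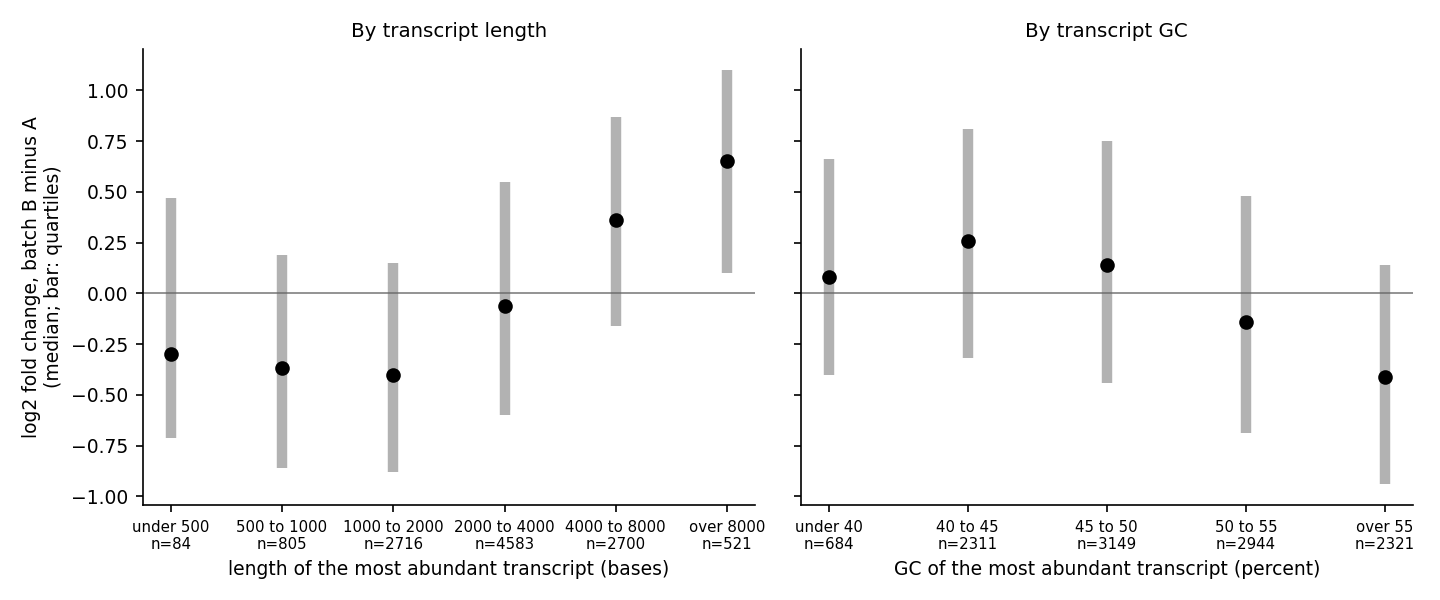
Median log2 fold change (batch B minus batch A) of protein-coding genes by length in bases and by GC in percent of the most abundant transcript, with bars from the lower to the upper quartile and the number of genes under each class. The median goes from -0.40 at 1000 to 2000 bases to 0.65 over 8000 bases, and from 0.26 at 40 to 45% GC to -0.41 over 55%.

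The relation to abundance depended on the batch that ranked the genes. Of the 2680 tested genes with the highest mean CPM over the 16 oocytes, 10 of which were of batch B, 646 were higher and 175 lower (median 0.40). Ranked by batch A alone the numbers were 449 and 286 (median 0.05), and by batch B alone 717 and 107 (median 0.52), rankings added after the data were seen. Ranking by a batch favors genes that are higher in it, so the lean of abundant genes to the higher side is in part set by the choice of ranking.

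Among protein-coding genes without overlap and with a mean of 10 CPM or more in batch B, the 8 with the smallest adjusted p on the higher side were 3.67-fold to 6.45-fold higher. Nsrp1, a nuclear speckle splicing regulator, was 5.52-fold higher, Upf3b, a factor of nonsense-mediated decay, 5.28-fold and Top1, the DNA topoisomerase I gene, 4.39-fold. Fnbp1l, which links membrane bending to actin, was 4.53-fold higher and Hyls1, a centriole protein, 6.45-fold. Cpd, which encodes carboxypeptidase D, was 4.37-fold higher, Iws1, which travels with elongating RNA polymerase, 3.88-fold, and the zinc finger gene Zfp638 3.67-fold. The lack of overlap between batches was a condition of their choice.

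Of these 8 genes, Cpd had the smallest adjusted p. Its CPM was 24.6, 27.1 and 29.3 in batch A and 94.9, 115 and 139 in batch B, so the batches lay far apart with little spread inside either (log2 fold change 2.13 ± 0.14 SE, adjusted p = 3.68e-10, edgeR's quasi-likelihood test with Benjamini-Hochberg adjustment). Nsrp1 had 74.0, 87.5 and 168 CPM against 334, 579 and 745 (2.46 ± 0.20, edgeR adjusted p = 6.49e-09). Top1 had 133, 208 and 241 against 542, 937 and 1139 (2.13 ± 0.17, edgeR adjusted p = 6.49e-09). In these genes the lowest batch B oocyte was above the highest of batch A by a wide margin.

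The protein-coding genes that led the lower side included an egg-coat gene and an actin gene. Zp1, which encodes the zona protein that cross-links the filaments of the egg coat, was 4.06-fold lower in batch B, and Actg1, the gamma actin gene, was 3.65-fold lower. Tmem255b was 6.19-fold lower, Rnf44 4.85-fold, Cryl1, a crystallin-related dehydrogenase gene, 4.81-fold and Noc4l, a factor of small ribosomal subunit assembly, 2.75-fold. Zp1 had 549, 646 and 950 CPM in batch A and 104, 162 and 266 in batch B (log2 fold change -2.02 ± 0.17 SE, edgeR adjusted p = 1.16e-08). Actg1 had 107, 136 and 154 against 23.5, 36.8 and 48.8 (-1.87 ± 0.17, edgeR adjusted p = 1.56e-08). Neither gene overlapped between batches, which the rule for naming genes required. With length and GC taken out Noc4l no longer passed the fold limit, at -0.83.

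Tmem38b and Gm28048 also met the rule, but with a caveat on read assignment. Tmem38b, a channel gene of the endoplasmic reticulum on chromosome 4 (GRCm38, 53826045 to 53862019), had 396, 892 and 1255 CPM in batch A and 19.4, 40.3 and 64.9 in batch B by RSEM, 20.5-fold lower (edgeR adjusted p = 8.36e-11). By HTSeq its mean was 40.1 CPM in batch A and 44.3 in batch B, a log2 fold change of 0.15 (adjusted p = 0.674 by edgeR), so the HTSeq counts did not show the difference. Gm28048, a predicted gene 39.7-fold lower by RSEM, had too few HTSeq counts to be tested.

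Outside the protein-coding genes, Gm8337 and Gm11645 were among the genes with the smallest adjusted p that did not overlap and reached 10 CPM. Of these, Gm8337 had 0.103 to 0.881 CPM in batch A and 28.5 to 80.5 in batch B, and Gm11645 had 0 to 0.345 against 13.5 to 53.0. Both are processed pseudogenes, whose reads are hard to tell from those of their parent genes, and neither had enough HTSeq counts to be tested. The noncoding transcript AC158982.1 was 3.25-fold higher (HTSeq log2 fold change 1.63). On the lower side stood the lincRNA Gm10857, 3.00-fold lower, the TEC loci Gm38056 (5.15-fold) and Gm47208 (34.5-fold), and Gm10222, a pseudogene, 5.74-fold lower; the Gm38056 difference did not pass in HTSeq counts (-0.86, adjusted p = 0.231 by edgeR). Of the genes tested 5 had no count in any batch A oocyte, under a filter that a gene present in batch B alone passes with 6 of 10 oocytes and a gene present in batch A alone with 6 of 6. They were looked up after their values were seen and are all processed pseudogenes: Gm10698, Gm12161, Gm12918, Gm13378 and Gm13502, with median CPM in batch B of 8.96, 7.13, 4.11, 3.52 and 1.89.

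RSEM and HTSeq gave like results for most genes. Of the 2577 called genes 2318 were tested in HTSeq counts, and 2024 had the same call (78.5%), 290 were not called and 4 had the opposite call. The 4 were Gm10175, Gm14448, Hist2h3c2 and Mir6236, chosen here after their values were seen. HTSeq itself called 2579 of 13911 genes (18.5%), 1400 higher (10.1%) and 1179 lower (8.48%). Across the 12127 genes in both fits the log2 fold changes had a Spearman's rho of 0.96.

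Several abundant oocyte genes agreed closely between batches. Gdf9, the oocyte's growth signal to granulosa cells, had 1768, 2186 and 3153 CPM in batch A and 1646, 2372 and 4469 in batch B, a log2 fold change of 0.13 with a 95% interval of -0.26 to 0.53. H1foo, the oocyte linker histone, had 1265, 1787 and 2042 against 1148, 1883 and 2380 (0.06, -0.29 to 0.42). Oas1d, an oocyte-expressed member of the 2'-5' oligoadenylate synthetase family, had 674, 771 and 1025 against 643, 803 and 1068 (0.01, -0.27 to 0.29). In all 3 the ranges of the batches lay over each other.

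The 10 most closely agreeing genes among the 200 most abundant nuclear protein-coding genes were Oas1d, Oas1e, Tm9sf2, Ccdc69, D10Wsu102e, the oocyte homeobox gene Obox5, the F-box gene Fbxw14, the imprint-maintenance factor Zfp57, the ubiquitin ligase adaptor Kbtbd8, and H1foo. Their log2 fold changes ran from -0.08 for Zfp57 to 0.15 for Kbtbd8, and the bound farthest from 0 was 0.42, for H1foo. Taking length and GC out moved H1foo to 0.66 and Gdf9 to 0.67, so how near to 0 these values lie depends on that adjustment.

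Agreement was about as common among the 200 most abundant nuclear protein-coding genes as among all genes, but less common than among genes of high CPM at large. With all genes tested put in groups of near-equal size by mean CPM, 0.0373%, 10.1%, 35%, 49.5% and 44.9% agreed, from the lowest group to the highest. Of the 200, each with a mean of 358 CPM or more, 58 agreed (29%), 77 were called higher in batch B (38.5%) and 19 lower (9.5%), and 46 did neither, beside 27.9%, 11% and 8.21% over all genes. Their median log2 fold change was 0.80, beside -0.02 over all genes tested. With length and GC taken out, 71 were higher and 12 lower. The lean to the higher side did not hold for the 200 most abundant in batch A, of which 28 were higher, 35 lower and 79 agreed (median -0.05), whereas of the 200 most abundant in batch B, 96 were higher, 9 lower and 54 agreed (median 0.96).

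The most abundant of the 77 were Rdx, E330021D16Rik, Khdc1b, Hsp90aa1 and Cenpf. Rdx encodes radixin, which ties actin to the plasma membrane, and had 1166, 1479 and 1884 CPM in batch A and 2708, 4209 and 7010 in batch B (3.04-fold, edgeR adjusted p = 2.61e-07). Cenpf, a kinetochore gene with a transcript of 11130 bases, had 451, 663 and 820 against 1445, 2453 and 2993 (3.62-fold, edgeR adjusted p = 2.05e-08). Both were free of overlap, and with length and GC taken out Cenpf stayed called at a log2 fold change of 1.20. Khdc1b, a KH-domain gene, was 2.26-fold higher with overlap. E330021D16Rik (2.06-fold) and the chaperone gene Hsp90aa1 (2.02-fold) lay just past the fold limit, and leaving out single oocytes took their log2 fold changes down to 0.95 and 0.97; HTSeq gave 0.90 for E330021D16Rik, and the fit without length and GC gave 0.93 for Hsp90aa1.

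On the lower side the most abundant were Zbed3, Ldhb, Padi6, Zp3 and Bmp15. Zp3, another zona protein gene of the egg coat, had 1377, 1834 and 2726 CPM in batch A and 227, 348 and 914 in batch B (4.45-fold, edgeR adjusted p = 4.84e-07). Bmp15, the partner growth factor of Gdf9, had 1220, 1517 and 2126 against 309, 492 and 687 (3.29-fold, edgeR adjusted p = 6.34e-08). Zbed3, a member of the subcortical maternal complex, had 2063, 3575 and 5029 against 744, 1156 and 1650 (3.10-fold, edgeR adjusted p = 2.14e-07). No batch B oocyte reached the lowest of batch A in any of these genes. Padi6, of the cytoplasmic lattices, was 2.32-fold lower and the lactate dehydrogenase gene Ldhb 2.16-fold lower; with length and GC taken out both missed the fold limit, at -0.73 and -0.57, and Zbed3 stood at -1.06.

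**Figure D3:**
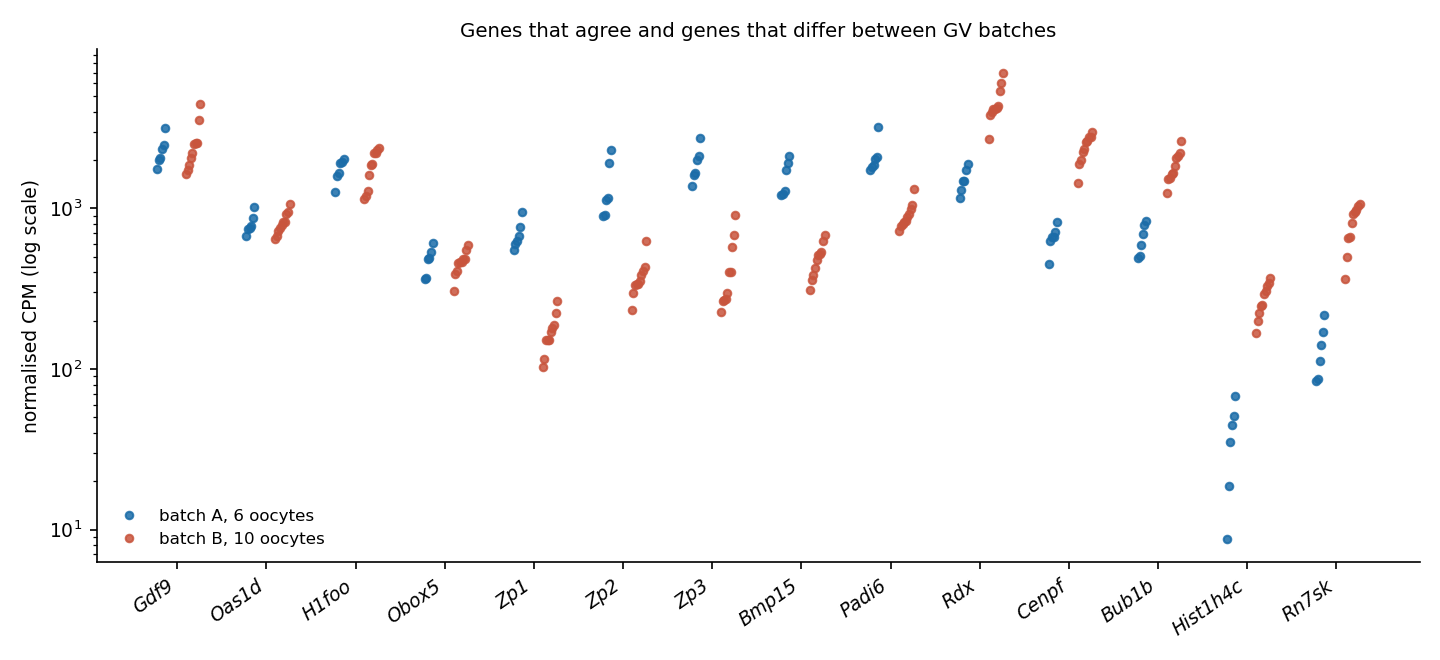
Level in CPM (log scale) of 14 genes in each GV oocyte of batch A (6 points) and batch B (10 points). Gdf9, Oas1d, H1foo and Obox5 overlap between batches, Zp1, Zp2, Zp3, Bmp15 and Padi6 are lower in batch B without overlap, and Rdx, Cenpf, Bub1b, Hist1h4c and Rn7sk are higher without overlap; levels of different genes are not scaled to length.

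Taken as a list, oocyte genes leaned to the lower side while many agreed. Agreement over all genes was more common at high abundance, with 49.5% and 44.9% in the groups of highest CPM. No list was compared with genes of equal abundance. Over all genes tested 11% were higher, 8.21% lower and 27.9% agreed, which is the measure for the main counts of each list that follows. For counts with length and GC taken out, the measure is 1660 higher and 584 lower of 13396 genes, with a median of 0.14. Of 54 oocyte genes tested, 2 were higher, 14 lower and 26 agreed, with a median log2 fold change of -0.31 beside -0.02 over all genes. Once length and GC were taken out, 4 were higher and 7 lower, with a median of 0.05 beside 0.14 over all genes. The genes higher were Btg4, an adaptor of mRNA deadenylation (1.13), and Pde3a, the phosphodiesterase that controls meiotic arrest (1.38). The 3 zona genes Zp1, Zp2 and Zp3 fell together, by 2.02, 1.89 and 2.15 on the log2 scale. Of the subcortical maternal complex, Zbed3 (-1.63), Ooep (-1.38) and Tle6 (-1.15) fell, as did Padi6 (-1.21) of the cytoplasmic lattices. Of the same complex, Nlrp5 (-0.65) did not pass and Khdc3 (-0.30) agreed. The transcription factor genes Nobox (-1.38) and Lhx8 (-1.01) fell, whereas Figla was at 0.02 and agreed. Bcl2l10 and Spin1, the most abundant of the list by CPM, had log2 fold changes of 0.96 and 0.77 that did not reach the fold limit; Bcl2l10 passed it with length and GC taken out, at 1.38.

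Of 29 meiotic cell cycle genes tested, 3 were higher, 4 lower and 16 agreed (median -0.13, or -0.04 with length and GC taken out), with calls in either direction near the shares over all genes (11% and 8.21%). Bub1b, a spindle checkpoint kinase, had 492, 638 and 833 CPM in batch A and 1248, 1746 and 2640 in batch B (2.85-fold, edgeR adjusted p = 3.26e-07), with no overlap. The others higher were the phosphatase Cdc25a (1.11) and Incenp (1.41), a scaffold of the chromosomal passenger complex. Cdk1, the kinase that drives entry into M phase, had 53.1, 80.7 and 96.5 against 16.1, 28.8 and 46.7 (2.7-fold lower, edgeR adjusted p = 3.6e-06). Aurkc (-1.21), Cdc20 (-1.07) and Fzr1 (-1.07) fell as well, and with length and GC taken out the list kept 1 lower call. Ccnb1, the cyclin partner of Cdk1, had a log2 fold change of -0.94 and just missed the fold limit, though HTSeq counts took it past, at -1.04. The kinase gene Plk1 (0.02) and Mos (-0.20), which holds the MII arrest, agreed.

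Genes of short, housekeeping messages leaned lower. Of 82 cytoplasmic ribosomal protein genes 1 was higher, 18 lower and 29 agreed (median -0.62). Rpl10 was 4.95-fold lower and Rpl41 3.07-fold, Rpsa was the gene higher (1.22), and Rpl4 (0.19), the most abundant by CPM, agreed while the next, Rplp0, stood at -0.73 without a call. Of 92 nuclear-encoded respiratory chain genes 1 was higher, 18 lower and 36 agreed (median -0.58). Cox4i1 had 67.1, 79.0 and 109 CPM against 14.1, 25.9 and 39.5, with no overlap (3.19-fold lower, edgeR adjusted p = 2.55e-07), Cox6a1 was 2.94-fold lower, and Cox6b1 was the gene higher (1.19). Sdha (0.42) and Atp5a1 (-0.61) agreed, although the adjusted p of both was below 0.05 by edgeR. Transcripts of these lists had median lengths of 744.5 and 772 bases. With length and GC taken out the ribosomal list had 5 higher and 8 lower (median -0.18) and the respiratory list 3 and 10 (median -0.21). Both medians stayed under the 0.14 of all genes in that fit, where 584 of 13396 were lower. The log2 fold changes of Cox4i1 and Cox6a1 both shrank to -1.02.

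The mitochondrial genome's own messages were the list with the largest share of lower calls. Of 13 genes 10 were lower, mt-Nd5 agreed (-0.37), and mt-Nd2 (-0.81) and mt-Nd4l (-2.69) did not pass. The median of -1.47 was -1.39 with length and GC taken out. mt-Nd6, a subunit of complex I, had 90.4, 146 and 166 CPM in batch A and 36.5, 49.2 and 65.3 in batch B, 2.77-fold lower with no overlap (edgeR adjusted p = 1.41e-07). mt-Nd1 was 4.00-fold, mt-Co1 3.29-fold and mt-Cytb 2.72-fold lower, and in each the ranges overlapped through oocyte B7, which had 258, 521 and 808 CPM.

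Histone genes of the replication-dependent type, whose messages lack a poly(A) tail in dividing cells, went the other way. Of 43 tested 22 were higher, 1 lower and 2 agreed, with a median of 1.68, and with length and GC taken out 27 were higher and 0 lower, while HTSeq counts gave 14 higher and 1 lower. Hist1h4c had 8.79, 40 and 67.7 CPM in batch A and 167, 271 and 367 in batch B (7.24-fold, edgeR adjusted p = 2.38e-07). Hist1h4a was 7.61-fold higher and Hist1h2aa 8.27-fold, and none of these 3 overlapped between batches. The summed level of the list was 178, 366 and 448 CPM against 807, 1203 and 1893. Hist2h3c2 was the gene lower in RSEM (-1.81) and had the opposite call in HTSeq (3.04). Hist1h2bc and Hist1h2bm agreed, at -0.03 and -0.23.

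Proteasome subunits held an even course. Of 37 tested 4 were higher, 3 lower and 14 agreed (median -0.11), close to the shares over all genes. Psmd7 was 2.90-fold and Psmd10 2.35-fold higher, with Psmd1 (1.21) and Psmd11 (1.21), all tied to the regulatory particle, and Psmb5 (-1.20), Psma5 (-1.14) and Psmd9 (-1.04) were lower. Psma7 (-0.19) agreed, and Psmd4 (0.72) did not pass. With length and GC taken out 8 were higher, Psmd4 among them (1.44), 0 lower, and the median was 0.23. HTSeq counts gave 6 lower.

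Of 18 housekeeping reference genes tested 0 were higher, 6 lower and 5 agreed (median -0.74, or -0.33 with length and GC taken out and the same counts of calls). The genes lower were Actg1, Tuba1b (5.79-fold), Ppia (4.00-fold), Gapdh (-1.82), Hprt (-1.54) and Polr2a (2.01-fold), the last of which missed the fold limit in HTSeq counts (-0.99). Actb (-0.48), Tbp (-0.19), B2m (-0.01), Sdha (0.42) and Tubb5 (-0.63) agreed. Ywhaz (-0.75), the most abundant of the list by CPM, did not pass.

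Of a list of nuclear and polymerase III transcripts, which did not hold the 7SL copies, 8 were tested, Rn7sk was higher and Gas5 agreed (-0.13), with a median of 0.77. Malat1, a nuclear long noncoding RNA, had 2.80, 9.01 and 23.2 CPM in batch A and 7.55, 16.8 and 56.8 in batch B; its log2 fold change of 0.90 did not pass by RSEM, while HTSeq gave 1.51 (adjusted p = 0.00547 by edgeR). Of 15 immediate-early and heat shock genes tested, Hsp90aa1 was higher, and Egr1 and Hspb1 were lower (-1.33 and -1.84), with Hsph1 and Hspa5 agreeing and a median of -0.12. The median turned to 0.29 with length and GC taken out, where Egr1 missed the fold limit (-0.96), Hspb1 was not called either, and Hspa8 passed (1.11, from 0.76).

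Traces of other cell types were small and did not all move one way. Of 31 granulosa and cumulus markers 10 were tested, Gja1 and Inhba were higher, Cyp11a1 was lower and 3 agreed (Cyp19a1, Nr5a2 and Bmpr1b), with a median of 0.36. With length and GC taken out the median was 0.09, and of the genes higher Gja1 alone stayed called. Gja1, a gap junction gene, had 0.127, 0.745 and 1.81 CPM in batch A and 0.453, 2.55 and 12.4 in batch B, and Cyp11a1, of steroid synthesis, had 0.637, 2.27 and 3.19 against 0, 0.257 and 1.10. Both overlapped, and at these levels the calls rest on few counts. The summed level of the list was 241, 267 and 280 CPM in batch A and 219, 251 and 273 in batch B. Most of it came from Serpine2 (-0.70, not called) and Bmpr1b (0.37). Fewer attached cells and less RNA per cell cannot be told apart in such traces.

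Of 16 blood and immune markers 5 were tested. The beta-globin genes Hbb-bs and Hbb-bt were higher in batch B, with 0 to 0.0637 and 0 to 0.440 CPM in batch A against 0.453 to 4.93 and 1.32 to 4.47 in batch B. Every batch B oocyte had counts of both, 293 and 259 in all, whereas in batch A a single oocyte had 1 count of Hbb-bs and a single oocyte 5 of Hbb-bt. The alpha-globin gene Hba-a1 had 10 counts in batch B, in 5 of its oocytes. Too few HTSeq counts were present for Hbb-bs and Hbb-bt to be tested. The list's summed level was 51.1, 61.0 and 89.3 CPM in batch A and 25.7, 48.9 and 70.6 in batch B, most of it from Ms4a1 (-0.99, not called, though past the fold limit in HTSeq counts at -1.09) and C1qb (-0.12), which agreed. The part of these traces in the differences between batches was not tested.

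Olfactory and other sensory receptor genes, a large family best known from the nose, had reads in both batches. Of 1521 genes 126 were tested, 8 were higher, 12 lower and 22 agreed (median 0.01, or -0.14 with length and GC taken out), while HTSeq counts gave 2 higher and 2 lower (median -0.24). These calls were not far from the 11% and 8.21% over all genes. Olfr624 had the highest CPM, 1729, 2430 and 2778 in batch A and 1820, 2600 and 3650 in batch B (0.19), and agreed. By HTSeq its mean was 22.0 and 21.5 CPM, so nearly all of its RSEM level came from reads that HTSeq does not assign to it. Olfr472 had 0.94 by RSEM without a call and -0.81 by HTSeq. The lower genes Olfr620 (6.14-fold) and Vmn1r13 (7.83-fold) had too few HTSeq counts to be tested. Of the noncoding genes at the top by CPM, Gm37724 (1.01), Gm48273 (1.24) and Gm16211 (1.13) were called higher by RSEM. Gm36976 (0.83), Gm42887 (0.65), Gm36958 (0.52) and Gm45663 (0.36) were not called. By HTSeq the mean levels of these noncoding genes in either batch lay between 1.09 CPM for Gm42887 and 212 CPM for Gm36976. These were far under the RSEM levels, which for Gm37724 began at 4998 CPM. In HTSeq counts Gm37724 (0.38) and Gm48273 (0.51) were not called, whereas Gm16211 was called higher (1.44, adjusted p = 0.036 by edgeR). Gm37724 also missed the fold limit with RLE scaling and in DESeq2 (0.98 in both), and in 7 of the 16 fits that left out an oocyte, down to 0.95.

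**Figure D4:**
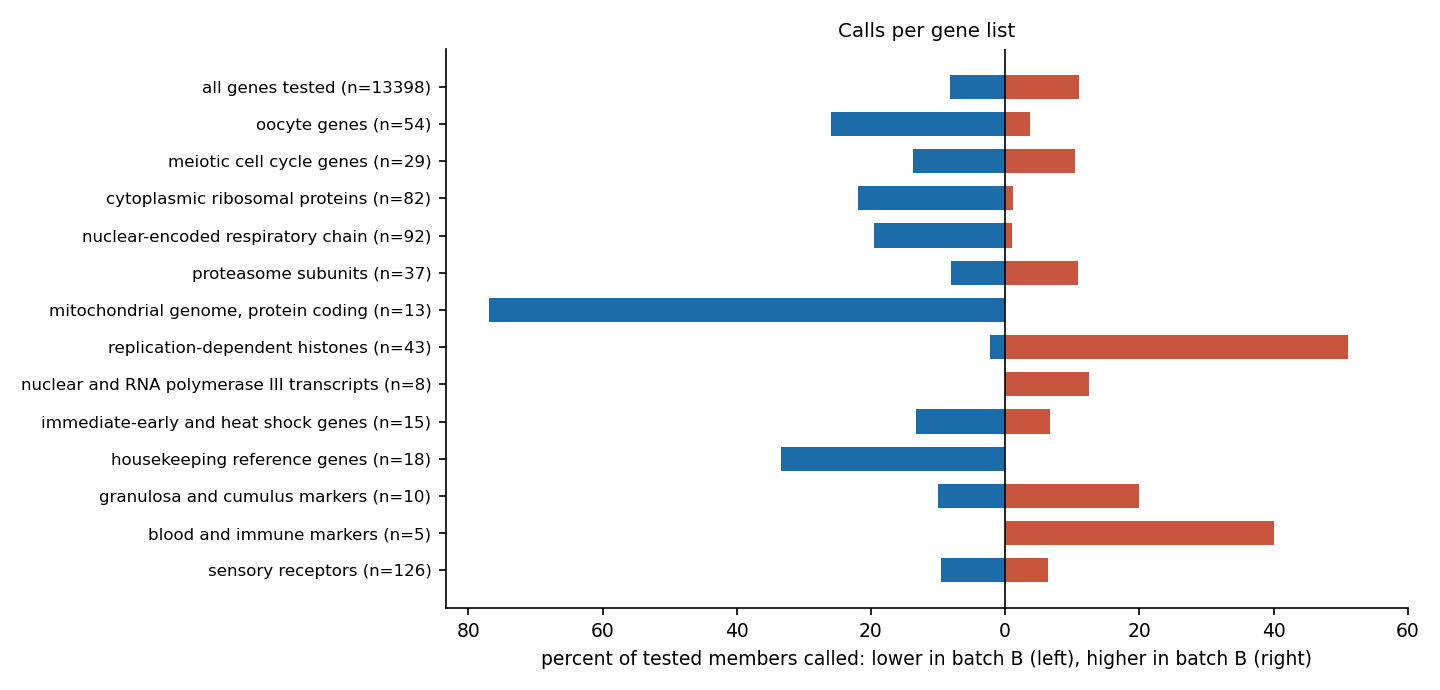
Percent of the tested members of each gene list called lower (left) or higher (right) in batch B, with the number tested, beside all genes. All genes had 8.21% lower and 11% higher, the mitochondrial genome 10 of 13 lower, and replication-dependent histones 22 of 43 higher.

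Transcripts differed within genes that were not called as a whole, a group that includes genes with an adjusted p below 0.05 and a fold change under 2. Of 25220 annotated transcripts tested 4862 were called (19.3%), 3069 higher (12.2%) and 1793 lower (7.11%) in batch B. The filter admits a transcript present in batch B alone with 6 of 10 oocytes and a transcript present in batch A alone with 6 of 6, and the calls include 191 transcripts with no count in batch A and 15 with none in batch B, so the split is not even-handed. Among them 2060 belonged to a gene that was not called, 2743 to a gene called the same way and 57 to a gene called the opposite way. Transcripts called in both directions were found in 207 host genes, of which 157 were not called as genes. Retained-intron transcripts had 421 higher and 98 lower of 2128 (median 0.40) and nonsense-mediated decay transcripts 209 and 57 of 1319 (0.18), beside 1946 and 1406 of 17943 for protein-coding ones (-0.07).

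In the RSEM estimates, Olfr1330 and Ermp1 each had a transcript called higher in batch B and another called lower. HTSeq counted genes alone, so it gave no second view of these isoforms. Olfr1330-205 had 95.9, 135 and 186 CPM in batch A and at most 0.433 in batch B, while Olfr1330-204 had at most 1.82 in batch A and 149, 188 and 230 in batch B. Both were called by edgeR's quasi-likelihood test (adjusted p = 1.87e-09 and 1.35e-09), while the gene as a whole changed less than 2-fold (log2 fold change 0.53, edgeR adjusted p = 0.00973). Of Ermp1, which encodes a metallopeptidase of the endoplasmic reticulum, the decay-annotated Ermp1-201 had 204, 238 and 479 CPM in batch A and at most 0.898 in batch B. The gene was at 0.29 (edgeR adjusted p = 0.158), with the longer Ermp1-203 at 163 CPM on average in batch A and 491 in batch B.

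In Tnks and Dnmt3a transcripts differed in both directions while the gene was not called. Tnks-203, a retained-intron transcript of tankyrase, had no count in batch A and 23.1, 65.3 and 133 CPM in batch B. Tnks-201 was not called (-0.37), and Tnks-202 was lower (-3.56). Tnks-203 was at least 1810-fold higher when its 7597 counts pooled over batch B are set against a floor of 3 counts pooled over batch A. Dnmt3a-217, a short transcript of the de novo methyltransferase gene, had 5.96, 14.7 and 18.1 CPM in batch A and at most 0.151 in batch B. Dnmt3a-201 was lower as well (-4.58), whereas Dnmt3a-203 (5.24) and Dnmt3a-218 (1.25) were higher. The gene-level log2 fold changes were 0.81 for Tnks (edgeR adjusted p = 0.00179) and 0.50 for Dnmt3a (0.0343), both under the fold limit. RSEM divides reads between isoforms that share exons, so the level of a single isoform is less certain than that of its gene.

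The other oocytes of the same batches gave a further view, though stage and batch cannot be told apart there. The 15 MI oocytes of batch B were compared with the 6 MII oocytes of batch A, none of which entered the GV comparison, and 3777 of 13866 genes were called (27.2%), 1830 higher (13.2%) and 1947 lower (14%) in batch B. Of 2551 genes called between the GV batches and tested there, 1551 had the same call (60.8%) and 11 the opposite one (0.431%). Of genes higher in batch B at GV, 888 of 1473 were again higher (60.3%), and of those lower 663 of 1078 were again lower (61.5%). Of the 10471 genes not called at GV, 782 were higher and 1166 lower. Mean transcript length was 2323 ± 144 bases in the MII oocytes of batch A and 2460 ± 94.2 in the MI oocytes of batch B, and ERCC counts were 1.19% ± 0.163 and 7.47e-05% ± 6.67e-05, in the order seen at GV. The misc_RNA share went the other way, 1.06% ± 0.221 in the MII oocytes of batch A and 0.644% ± 0.203 in the MI oocytes of batch B.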

How the data were processed

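Single mouse oocytes were measured by Smart-seq2. The authors aligned reads with STAR 2.7.6a after Trim Galore 0.6.4, and deposited RSEM 1.3.1 expected counts per gene and transcript and HTSeq 0.12.4 counts per gene, as their processing notes give. Strandedness and the overlap mode of HTSeq were not stated. Expected counts were rounded to whole numbers. The 92 ERCC RNAs were left out, and of 54752 gene and 138835 transcript identifiers 54723 and 138789 matched the GENCODE M21 annotation (GRCm38), which gave classes, lengths and GC. Genes and transcripts with 10 or more counts in at least 6 of the 16 oocytes were scaled with TMM and tested in edgeR 4.0.16 (limma 3.58.1, R 4.3.3) with the quasi-likelihood test and Benjamini-Hochberg adjustment over all genes or transcripts tested. Measures and class shares per oocyte were compared with exact permutation tests over 8008 assignments, whose smallest p is 0.000125, adjusted within each table. Scripts were tested on simulated data, and figures drawn with Python 3.11.15, numpy 2.4.6 and matplotlib 3.10.9.

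Genes were named by rule: per direction, the 8 protein-coding and 4 other called genes with the smallest adjusted p whose batches did not overlap and whose mean in the higher batch was 10 CPM or more; among the 200 most abundant nuclear protein-coding genes, the 10 that agreed most closely and the 5 most abundant called in each direction; for each list, the 2 most abundant members and the 2 called members with the smallest adjusted p; the 10 most abundant genes of all; and, per direction, the 3 transcripts with the smallest adjusted p and no overlap in genes not called. Any other gene named in the text, among them most list members, was picked after its values were seen. Some items that the rule selects are not reported here. The lists were oocyte genes, meiotic cell cycle genes, cytoplasmic ribosomal proteins, the nuclear-encoded respiratory chain, proteasome subunits, the mitochondrial genome, replication-dependent histones, nuclear and polymerase III transcripts, immediate-early and heat shock genes, housekeeping reference genes, granulosa and cumulus markers, blood and immune markers, and sensory receptors. The members and lists were chosen with earlier results of these data known. Alternatives were RLE scaling, DESeq2 1.42.0, other filters, no fold limit, glmTreat, HTSeq counts, removal of ribosomal RNA-like and mitochondrial genes, a block on oocyte number, a length and GC offset, a tighter agreement limit, abundance ranked in a single batch, other lengths, and leaving out each oocyte. No 2 libraries were copies of each other, the lowest chi-square per degree of freedom between a pair being 17.31 in batch A and 23.73 in batch B.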

Additional observations from a re-analysis of the deposited data

Results flagged for a closer look

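In 24 of 244 groups of values a single oocyte stood apart from the rest of its batch by Dixon's gap. About 1 of 20 groups of normally distributed values would pass that limit. CPM values need not follow that distribution and some lay near the floor, so the rate is no measure for these groups. In batch A, oocyte A2 was highest for Tm9sf2 (694 CPM), Khdc1b (2667), Padi6 (3195), Psmd7 (65.88), Gm37724 (10170) and Gm48273 (7968). Oocyte A4 was highest for Ccdc69 (627.4) and Hbb-bt (0.4404), A1 for Vmn1r13 (25.32) and A6 for Hbb-bs (0.0637). In batch B, oocyte B7 was highest for mt-Cytb (807.6), mt-Co1 (521.5), mt-Nd1 (257.5), Gm42418 (282200), Zar1 (1012) and the share of counts in the 100 most abundant genes (70.77%). Oocyte B1 was highest for Iws1 (255.7) and Psmd4 (591), and B9 for Tmem255b (32.84) and Zp2 (628.3). Oocyte B10 was highest for Atp5a1 (173.4) and Malat1 (56.79) and lowest for Serpine2 (44.71). Oocyte B4 had the highest ratio of HTSeq to RSEM counts (2.2). Spike-in RNA was present in batch B at up to 32 counts in an oocyte.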

How the results depend on the processing

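Most results kept their value under other processing. Counts of calls depended on the rule: with no filter 2138 genes were lower (42.5% of calls higher), with no fold limit 4688 were called (2669 higher, 2019 lower), with glmTreat, which tests against the limit itself, 559 (404 and 155; 72.3% higher), and with length and GC taken out 584 were lower. A tighter agreement limit of 1.5 left 26 of the 200 abundant genes and 11 oocyte genes. By the union of exons the median change was 0.08 under 500 bases, -0.24 for 2000 to 4000 and 0.07 for 4000 to 8000, and for genes averaging 100 counts or more it was 0.04 for 2000 to 4000 (also 0.04 for coding ones) and -0.38 for coding genes under 500. In HTSeq counts Tmem38b stood at 0.15, the lincRNA share differed by 0.1941 points (adjusted exact permutation p = 0.0362) and the antisense share by -0.02795 (p = 0.316). Without ribosomal RNA-like and mitochondrial counts the lincRNA share was higher by 1.292 points (adjusted exact permutation p = 0.0015) and the TEC share by 1.688 (p = 0.0442). Leaving out single oocytes moved the TEC difference from -0.9819 (without A3) to -0.141 (without A2), and the genes called from 2287 to 2855. Oocytes of the batches share only a number: with a block on that number 3209 genes were called (1530 higher, 1679 lower, median -0.14), the same 12 oocytes without it gave 3156 (1658 and 1498), and 3 of 6 correlated best with their own number (r -0.029 to 0.18). The cause was not tested. The offset, the rankings by a single batch and the unblocked fit of 12 were chosen after the data were seen.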
